A study of Mus musculus with 23 samples.

Results

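Potassium channels open to let potassium leave the cell, and so set the resting voltage of neurons and glia, end each action potential and fix how fast a neuron can fire again. They are assembled from pore subunits and from auxiliary subunits that change gating and transport, and nearly all of these proteins are encoded by genes whose symbols start with Kcn. The genes described here are the protein-coding Kcn genes with a mean of at least 10 normalised reads over all 23 brain libraries, leaving out Kcna1, Kcna2, Kcnc1, Kcnj8, Kcnj10, Kcnj13 and Kcne2. They number 75 of the 17256 genes tested and of the 18848 genes listed. Of the 84 protein-coding Kcn genes listed, 7 were left out by name and 2 had lower means, Kcnn4 at 9.10 and Kcnj15 at 7.03, while Kcnk15 at 14.1, Kcnmb1 at 15.0 and Kcnrg at 15.8 were the lowest that were kept.

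The tissue of all libraries is given as brain, with no region named, from C57BL/6J males of 17 days after birth. The groups were 6 libraries from DCS-treated mice heterozygous for a C456Y change in Grin2b (HT DCS), 6 from vehicle-treated heterozygotes (HT vehicle), 5 from DCS-treated wild-type mice (WT DCS) and 6 from vehicle-treated wild-type mice (WT vehicle). The protein of Grin2b is part of NMDA receptors, cation channels that open on glutamate and pass calcium, and the heterozygotes keep an unaltered copy in every cell. DCS commonly stands for D-cycloserine, which acts in part like glycine at those receptors, though the labels give only the letters and no dose. The series title names NMDA receptor activation in the mutant, so the comparisons ask whether the mutation, DCS, or their combination altered the RNA of these channels.

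Each library summed to 32.3 to 33.5 M normalised reads, and the step between low values put the depth at 25.6 to 37.4 M reads before scaling. The neuronal genes Rbfox3, with 8703 to 9865 normalised reads, and Snap25, with 43391 to 55222, were high in every library. Grin2b itself averaged 18948 normalised reads in HT DCS, 18272 in HT vehicle, 18770 in WT DCS and 17910 in WT vehicle libraries, so a value summed over both alleles does not separate the genotypes. No label states that every library is its own mouse; the p-values therefore describe spread among libraries, which could be technical. HT DCS replicates 5 and 6 had the lowest summed levels of hindbrain markers of the 23 libraries, 958 and 1197 normalised reads, with 4 and 1 of the 18 such genes in the table at 0, against 1500 to 2347 in the others. Counts of channel genes in comparisons that use the HT DCS group are therefore also given without both, an alternative chosen after seeing the data. Differences of single genes are given without both only where stated, and all marker comparisons include both. In whole tissue, fewer cells of a type and less RNA per cell cannot be told apart.

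The 75 genes together took 0.470% ± 0.00900 of all normalised reads in HT DCS libraries (SD, n = 6), 0.472% ± 0.0151 in HT vehicle (n = 6), 0.479% ± 0.00617 in WT DCS (n = 5) and 0.476% ± 0.00366 in WT vehicle libraries (n = 6). Levels between genes are given per kb of the longest annotated transcript, as means over 23 libraries, and ran from 3.59 to 2491 normalised reads per kb with a median of 225. The highest was Kcnab2, a beta subunit of the axonal Kv1 channels, at 2491 normalised reads per kb, and Kcnk1, a leak channel subunit, stood at 1453. The 3 lowest were Kcnmb1 at 3.59, Kcnk15 at 7.34 and Kcnq1 at 8.57 normalised reads per kb. Kcnq1 is best known from heart and inner ear, and Kcnmb1 from smooth muscle.

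**Figure D1:**
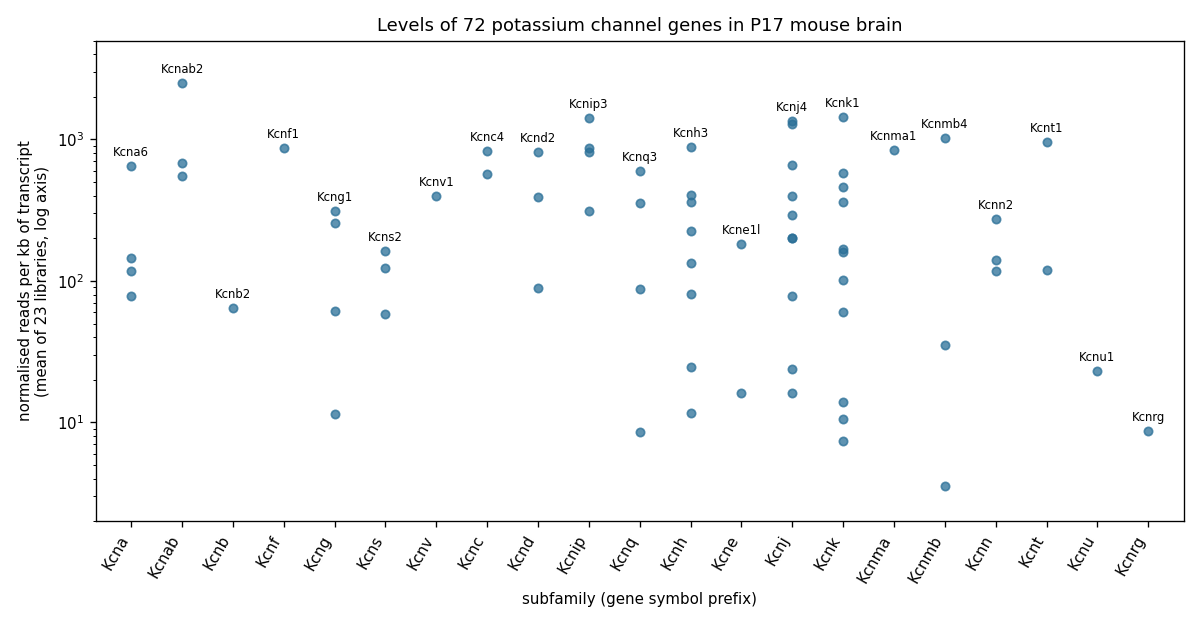
Mean level of 72 of the 75 genes over 23 libraries, in normalised reads per kb of transcript on a log axis, by gene symbol prefix; each point is a gene and the highest shown of each prefix is named. In most prefixes that hold several genes 1 member lies well above the lowest, as with Kcnmb4 at 1028 against Kcnmb1 at 3.59.

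Among voltage-gated pore subunits, levels differed widely within and between prefixes. Kcnq3 encodes a subunit of the channels of the M-current, a slow current that restrains repetitive firing. It stood at 594 ± 66.1 normalised reads per kb in HT DCS, 569 ± 25.3 in HT vehicle, 612 ± 43.3 in WT DCS and 618 ± 32.9 in WT vehicle libraries (SD, n = 6, 6, 5 and 6 here and below). Kcnd2 carries the dendritic A-type current, which opposes excitatory input. It had the lowest residual SD of the 75 genes, with means of 795 ± 17.9 in HT DCS, 814 ± 18.4 in HT vehicle, 820 ± 34.6 in WT DCS and 815 ± 20.4 normalised reads per kb in WT vehicle libraries. Of its calcium-binding partners, Kcnip3 stood at 1414, Kcnip2 at 864 and Kcnip4 at 814 normalised reads per kb over all libraries. Kcnip1 was lower, at 312. Of the remaining voltage-gated subunits, Kcnh3 stood at 892, Kcnf1, a silent partner of Kv2 channels, at 871, Kcna6 at 652, Kcnv1 at 400, Kcng1 at 315 and Kcns2 at 162 normalised reads per kb. Kcnh1, an ether-a-go-go channel, had 363 ± 21.0 in HT DCS, 368 ± 33.3 in HT vehicle, 372 ± 13.2 in WT DCS and 354 ± 11.6 in WT vehicle libraries on the same scale.

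Inward rectifiers pass current best near the resting potential, and those of the Kcnj3, Kcnj6 and Kcnj9 genes are opened by G proteins from receptors such as GABA-B. Of these 3, Kcnj9 was highest at 1287 normalised reads per kb over all libraries, followed by Kcnj3 at 657 and Kcnj6 at 202. Kcnj4, a constitutive inward rectifier of forebrain neurons, led its prefix at 1342, and the glial subunit Kcnj16 stood at 202 normalised reads per kb. Group means of Kcnj16 were 203 ± 13.8 in HT DCS, 207 ± 16.2 in HT vehicle, 202 ± 11.0 in WT DCS and 197 ± 12.2 in WT vehicle libraries, with every difference smaller than the larger SD.

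Calcium-activated channels couple calcium entry, including that through NMDA receptors, to potassium efflux. Kcnma1, the large-conductance BK channel, averaged 849 normalised reads per kb, with 870 ± 49.1 in HT DCS, 839 ± 71.8 in HT vehicle, 837 ± 25.9 in WT DCS and 847 ± 26.2 in WT vehicle libraries. Its neuronal beta subunit Kcnmb4 stood at 1028, far above Kcnmb2 at 35.1 and Kcnmb1 at 3.59. Of the small-conductance SK subunits, Kcnn2 stood at 276, Kcnn1 at 140 and Kcnn3 at 118 normalised reads per kb. Kcnt1, a sodium-activated channel, stood at 966 and Kcnt2 at 120 on this scale. The leading gene of each of the 21 prefixes was the same when the union of exons was used as length. Kcne1l at 183, Kcnu1 at 23.1 and Kcnrg at 8.69 normalised reads per kb led or made up their prefixes.

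Sequence just upstream of the start site also differed within a subfamily. RefSeq on GRCm38.p6 gave start sites for 53 of the 75 genes, in 76 windows, and the 250 bases before each start held a median of 8 CG pairs, from 0 to 43, against a median of 10 over 21255 windows of 17486 protein-coding genes. The GC content had a median of 59.6%, against 55.6% over those windows. The letters TATAAA, searched on both strands, were in 2 of 76 windows of channel genes, or 2.63%, and 11.6% of all windows. The cyclic AMP response element TGACGTCA was in 0 of 76 and 1.92%. Both shares of channel genes rest on few windows, some of which overlap within a gene. For 58 of the 76, bases just after the start were found in a GENCODE transcript of the gene. The windows of highest and lowest level among the BK beta subunits are shown because they span nearly the whole range of CG content, together with that of Kcnk13, the gene with the largest differences below among those over 100 normalised reads; CG pairs are in capitals. Kcnmb4 lies at chr10:116473524-116473773 on the minus strand with 43 CG pairs, Kcnmb1 at chr11:33962763-33963012 on the plus strand with 1, and Kcnk13 at chr12:99964249-99964498 on the plus strand with 8.
Kcnmb4: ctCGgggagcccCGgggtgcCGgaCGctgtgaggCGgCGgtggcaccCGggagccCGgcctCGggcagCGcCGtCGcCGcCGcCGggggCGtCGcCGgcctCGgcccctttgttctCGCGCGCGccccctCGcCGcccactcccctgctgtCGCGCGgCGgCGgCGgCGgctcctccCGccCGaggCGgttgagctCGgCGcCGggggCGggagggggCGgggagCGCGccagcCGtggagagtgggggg
Kcnmb1: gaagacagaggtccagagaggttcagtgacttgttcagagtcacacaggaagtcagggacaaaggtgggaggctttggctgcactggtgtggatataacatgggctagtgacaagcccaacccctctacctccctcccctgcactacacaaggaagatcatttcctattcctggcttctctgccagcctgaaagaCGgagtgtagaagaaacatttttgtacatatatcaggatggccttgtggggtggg
Kcnk13: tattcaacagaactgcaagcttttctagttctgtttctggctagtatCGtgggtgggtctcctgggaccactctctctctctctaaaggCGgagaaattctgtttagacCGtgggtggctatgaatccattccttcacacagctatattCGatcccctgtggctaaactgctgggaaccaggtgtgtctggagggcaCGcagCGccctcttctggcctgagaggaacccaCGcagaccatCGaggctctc
The first pair is not typical of the 75 genes. Windows of members with a mean of at least 1000 normalised reads had a median of 6 CG pairs (39 windows of 23 genes), against 17 for members with a mean under 100 (9 windows of 9 genes), and genes with several start sites count more than once. Kcnmb1 lies inside the span of Kcnip1 on the opposite strand, without shared exonic bases.

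With DCS in both genotypes, HT mice had 0 of 75 channel genes past the adjusted threshold of 0.05 against WT, the same as the 0% of all 17256 genes. At an unadjusted p under 0.05, limma picked 7 of the 75, or 9.33%, and 7.55% of all genes. All 7 were lower in HT DCS, against 4.13% of all genes in that direction, and 0 were higher, against 3.42%: Kcnk13, Kcng4, Kcns3, Kcnh2, Kcnj12, Kcnab1 and Kcnk1, with log2 differences of -0.37 to -0.09. Over the 75, 32 differences were above 0 and 43 below, with a median of -0.02, and the median over all genes was -0.00. The 95% intervals of 48 of the 75 lay within 0.25 of 0 on the log2 scale and those of 65 within 0.5. Without HT DCS replicates 5 and 6, limma picked 4 of the 75, or 5.33%, against 4.13% of all genes, at an unadjusted p under 0.05. Kcnk13, Kcns3 and Kcnv1 were lower and Kcnk15 higher in HT DCS libraries, and of all 17256 genes 360 were lower and 353 higher.

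Kcnk13, a tandem-pore leak channel known in mouse brain from microglia, had the smallest p. Its HT DCS libraries had 128 normalised reads at the lowest, 158 at the median and 203 at the highest, against 226, 222, 224, 174 and 178 in the 5 WT DCS libraries. All 6 HT DCS values were below the WT DCS mean, but the highest of them, replicate 3, lay among the WT values, so the groups overlapped. The log2 difference was -0.37 ± 0.12 (SE; 95% interval -0.62 to -0.13; limma adjusted p = 0.596). It was -0.38 within replicate numbers 1 to 3 and -0.29 within numbers 4 to 6, a split along which Kcnk13 itself differed, and -0.27 without HT DCS replicates 5 and 6. Of the 10 microglial markers, 9 had values higher in HT DCS than in WT DCS libraries, none past the threshold, with a median log2 difference of 0.15 and summed levels of 3905 to 6493 in HT DCS and 3422 to 6810 normalised reads in WT DCS libraries.

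Kcnab1, whose protein speeds the inactivation of Kv1 channels in axons and terminals, was the only one of the 75 whose groups did not overlap in this comparison, against 0.411% of all genes. Its 6 HT DCS libraries had 2584 normalised reads at the lowest, 2929 at the median and 2956 at the highest, against 3217, 3034, 3121, 3007 and 3027 in WT DCS libraries. The log2 difference was -0.11 ± 0.04 (SE; 95% interval -0.19 to -0.04; limma adjusted p = 0.607), and -0.07 without HT DCS replicates 5 and 6. The other beta subunits had values in the same direction, Kcnab2 with 9521 ± 839 and 10035 ± 453 normalised reads in HT DCS and WT DCS libraries, a log2 difference of -0.08, and Kcnab3 with -0.08. Kcng4, a silent partner of Kv2 channels, had 684 at the lowest, 864 at the median and 1126 at the highest in HT DCS libraries, against 1205, 1144, 1058, 932 and 954 normalised reads in WT DCS libraries, a log2 difference of -0.29 ± 0.10 (SE; limma adjusted p = 0.613). The 3 lowest of its HT DCS libraries were replicates 4, 5 and 6, and without replicates 5 and 6, at 684 and 705 normalised reads, the difference was -0.14, with an unadjusted p of 0.147 by limma. Of the higher members, Kcnk15 differed by 0.40 and the leak channel Kcnk6 by 0.32 on the log2 scale, with limma adjusted p of 0.790 and 0.735 and means of only 19.5 and 61.1 normalised reads in HT DCS against 14.5 and 48.2 in WT DCS libraries. Both sizes moved with the libraries used: Kcnk15 differed by 0.15 without WT DCS replicate 5, by 0.61 without HT DCS replicate 6 and by 0.70 without HT DCS replicates 5 and 6, and Kcnk6 by 0.15 without HT DCS replicates 5 and 6.

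All 12 oligodendrocyte markers were lower in HT DCS than in WT DCS libraries, none past the threshold, with a median log2 difference of -0.24 and summed levels of 327745 to 506391 in HT DCS and 445822 to 524352 normalised reads in WT DCS libraries; the part of cell makeup in the differences above was not tested. The widest shift was that of the hindbrain markers, with 13 of 15 tested genes lower, none past the threshold, a median log2 difference of -0.43 and sums of 958 to 2143 in HT DCS and 1695 to 2145 normalised reads in WT DCS libraries. Of these sums, 958 and 1197 were those of HT DCS replicates 5 and 6. Replicates 1 to 4 of that group had 2104, 2058, 2143 and 1690 normalised reads. The median without replicates 5 and 6 is not given here. Striatal markers were lower in 9 of 10, with a median of -0.13, and endothelial markers higher in 10 of 10, with a median of 0.10, again none past the threshold. Of 10 parvalbumin interneuron markers, 4 were higher and 6 lower in HT DCS libraries, with a median of -0.08 and none past the threshold. They summed to 38893 to 46068 in HT DCS and 45893 to 50578 normalised reads in WT DCS libraries. The lowest sums, 41690 and 38893, were those of HT DCS replicates 5 and 6.

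**Figure D2:**
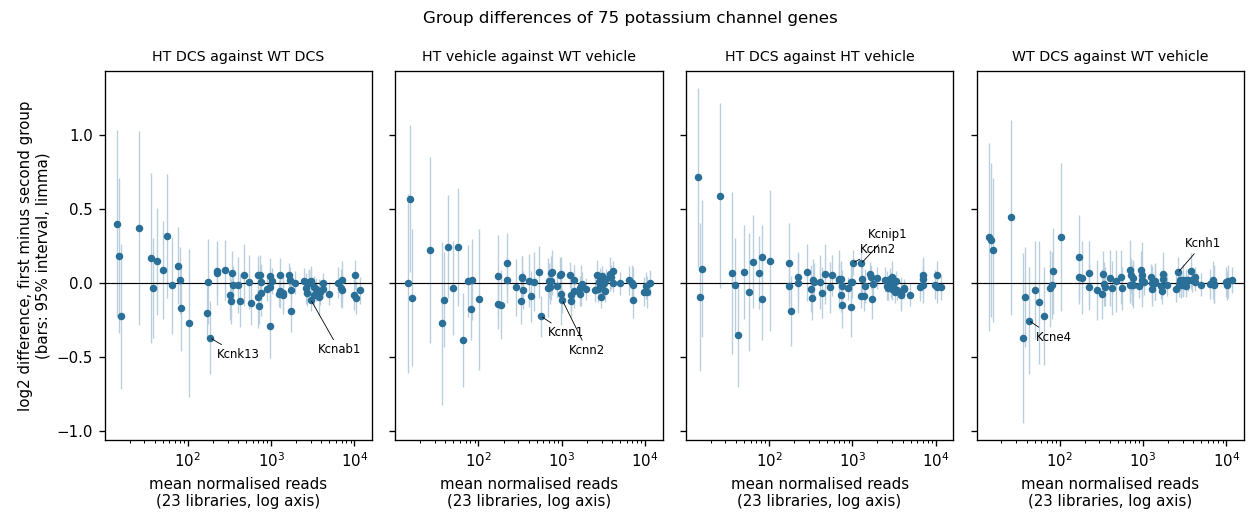
Log2 difference, first minus second group, of each of the 75 genes against its mean level in normalised reads (log axis), in the 4 pairwise comparisons; bars are 95% intervals and up to 2 genes with the smallest p are named. The bars widen for genes below about 100 normalised reads, and 0 genes passed the adjusted threshold in any of the 4.

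Under vehicle, HT and WT mice also differed in 0 of the 75 genes after adjustment, with 0% of all genes called. At an unadjusted p under 0.05, limma picked 7, or 9.33%, against 4.22% of all genes: Kcnf1 and Kcnmb1 higher in HT vehicle, where 2.19% of all genes were, and Kcnj14, Kcnn1, Kcnip1, Kcnn2 and Kcnab1 lower, where 2.03% were. The 75 had 31 differences above 0 and 44 below, with a median of -0.01 beside -0.00 over all genes. Both SK subunits among these 7 limit firing after a burst of calcium entry. Kcnn1 had 497 normalised reads at the lowest, 523 at the median and 547 at the highest in HT vehicle libraries, against 556, 603 and 747 in WT vehicle libraries. The groups did not overlap, which held for 0.249% of all genes, and WT vehicle replicate 1 at 747 stood apart above the next at 608. The log2 difference was -0.23 ± 0.07 (SE; 95% interval -0.36 to -0.09; limma adjusted p = 0.999), with -0.24 within replicate numbers 1 to 3 and -0.21 within numbers 4 to 6. Under DCS, Kcnn1 had 541 ± 35.0 and 597 ± 65.1 normalised reads in HT DCS and WT DCS libraries, and those groups overlapped. Kcnn2 had 914 at the lowest, 944 at the median and 1006 at the highest in HT vehicle libraries, against 963, 1046 and 1081 normalised reads in WT vehicle libraries, overlapping groups with a log2 difference of -0.12 ± 0.04 (SE; limma adjusted p = 0.999).

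Kcnf1 was 4190 at the lowest, 4238 at the median and 4534 normalised reads at the highest in HT vehicle libraries, against 3806, 4047 and 4288 in WT vehicle libraries, a log2 difference of 0.08 ± 0.03 (SE; limma adjusted p = 0.999). Kcnj14, an inward rectifier known from cranial motor nuclei of rodents, had a mean of 56.5 ± 8.10 in HT vehicle and 73.8 ± 8.35 normalised reads in WT vehicle libraries. Markers of hindbrain, where those nuclei lie, had 12 of 15 tested genes lower in HT vehicle libraries, none past the threshold. Their median log2 difference was -0.41, with sums of 1500 to 2226 in HT vehicle and 1783 to 2347 normalised reads in WT vehicle libraries. In HT DCS against WT DCS libraries their median was -0.43, with HT DCS replicates 5 and 6, the libraries lowest in these markers, included. Kcnj14 differed by -0.39 on the log2 scale under vehicle, and its genotype difference with DCS was 0.37 above that value. Kcnmb1, the smooth muscle BK beta subunit, had a mean of 17.9 ± 5.77 in HT vehicle and 11.9 ± 4.47 normalised reads in WT vehicle libraries, a log2 difference of 0.57 ± 0.24 (SE; limma adjusted p = 0.999). Of 10 markers of pericytes and smooth muscle, 8 were higher in HT vehicle libraries, none past the threshold, with a median log2 difference of 0.17 and sums of 6440 to 8331 in HT vehicle and 6313 to 7586 normalised reads in WT vehicle libraries. What part these cells had in either difference was not tested.

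Averaged over both treatments, the genotype difference left 0 of 75 genes past the adjusted threshold and 0% of all genes. At an unadjusted p under 0.05, 9 of the 75, or 12.0%, were picked by limma, against 7.17% of all genes; 8 of the 9 were lower in HT, which was 10.7% of the 75 and 3.96% of all genes, and 1 was higher, beside 3.21% of all genes. The smallest adjusted p were those of Kcnab1, with a log2 difference of -0.10 ± 0.03 (SE; limma adjusted p = 0.307), and Kcnn1, with -0.18 ± 0.05 (SE; limma adjusted p = 0.369). Kcnmb1, at 0.38, and Kcnk6, at 0.28 on the log2 scale, were the leading genes in the other direction. Of the 75 averaged differences, 30 were above 0 and 45 below. By subfamily, all 3 Kv1 beta subunits and all 4 Kcnip genes had averaged values below 0, with medians of -0.07 and -0.03, whereas the 11 leak channel genes were split, 6 above 0 and 5 below. The 2 Kcne and 2 Kcnt genes were all above 0, with medians of 0.11 and 0.02. Within each treatment taken alone, 1 of the 4 Kcnip genes was above 0. All 12 oligodendrocyte markers were again below 0 in this averaged comparison, with a median of -0.16, and the microglial markers were above it in 10 of 10, with a median of 0.13. Hindbrain markers were below 0 in 12 of 15, with a median of -0.42, striatal markers in 10 of 10, with -0.11, and endothelial markers above 0 in 10 of 10, with 0.08. None of these markers passed the threshold, and their part in the channel differences was not tested. Without HT DCS replicates 5 and 6, 7 of the 75 channel genes, or 9.33%, were at an unadjusted p under 0.05 by limma, against 4.7% of all genes. Of the 7, 6 were lower in HT, and of all 17256 genes 425 were lower and 386 higher at that p.

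**Figure D3:**
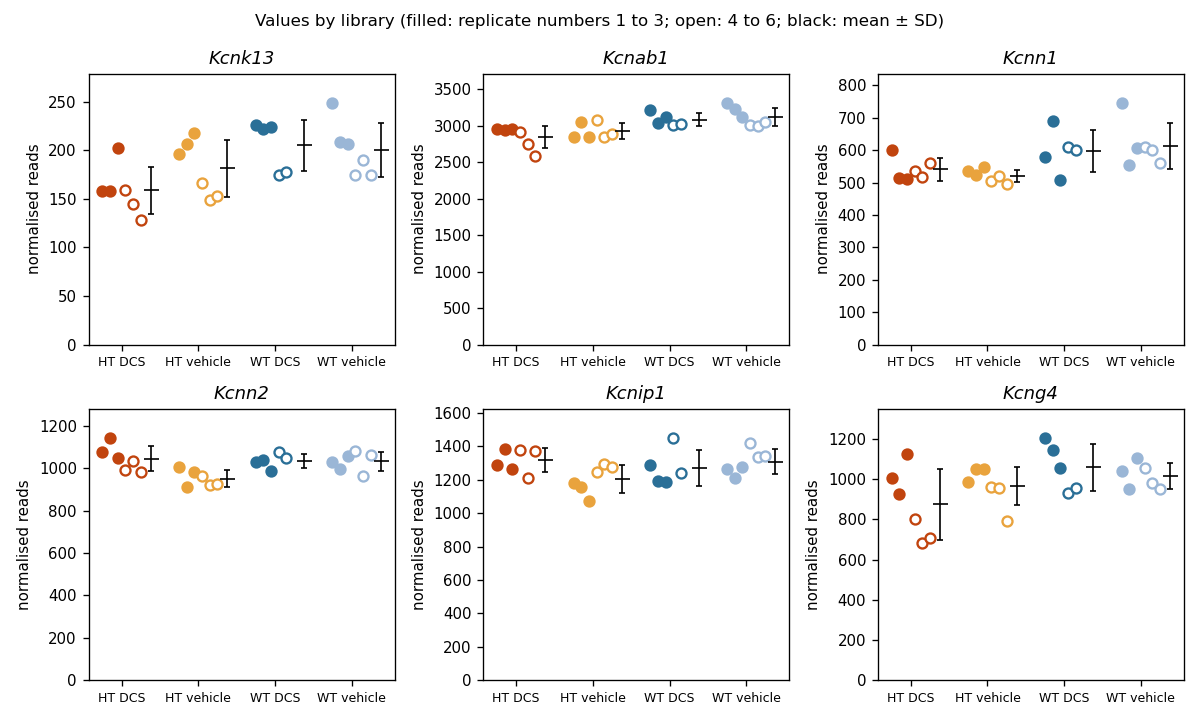
Normalised reads of 6 genes in each library, by group; filled points are replicate numbers 1 to 3, open points 4 to 6, and black bars the mean with its SD. The 6 HT vehicle points of Kcnn1 lie below the 6 WT vehicle points, and the open points of Kcnk13 lie at or below most filled ones.

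DCS in HT mice was compared with vehicle in the same genotype, using the HT vehicle libraries that also enter the comparison under vehicle above. Again 0 of 75 genes passed the adjusted threshold, with 0% of all genes. At an unadjusted p under 0.05, limma picked 7 of the 75, or 9.33%, and 4.80% of all genes. Kcnn2, Kcnip1 and Kcnk15 were higher in HT DCS, beside 2.22% of all genes, and Kcne4, Kcnk10, Kcnip3 and Kcnj9 lower, beside 2.58%. For 0 of the 75 the groups did not overlap, beside 0.127% of all genes. The 75 had 36 differences above 0 and 39 below, with a median of -0.01 beside -0.00 over all genes, and 55 of the 95% intervals lay within 0.25 of 0. Kcnn2 had the smallest p, with 983 at the lowest, 1042 at the median and 1144 normalised reads at the highest in HT DCS libraries, against 914, 944 and 1006 in HT vehicle libraries. The ranges overlapped only between 983 and 1006, and all 6 HT DCS values were above the HT vehicle mean. Its log2 difference was 0.13 ± 0.04 (SE; 95% interval 0.05 to 0.22; limma adjusted p = 0.943), with 0.17 within replicate numbers 1 to 3 and 0.10 within numbers 4 to 6. The WT means of Kcnn2 were 1036 ± 32.9 with DCS and 1033 ± 45.0 normalised reads with vehicle, so HT vehicle was the group with the lowest mean of the 4. Without HT DCS replicates 5 and 6, limma picked 3 of the 75 channel genes, or 4%, against 3.66% of all genes. Of the 3, 0 were lower in HT DCS, and of all 17256 genes 301 were lower and 330 higher. Kcnn2 then differed by 0.16.

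Kcnip1, a Kv4 partner known from interneurons, had 1213 at the lowest, 1331 at the median and 1385 in HT DCS libraries, against 1073, 1212 and 1295 normalised reads in HT vehicle libraries, a log2 difference of 0.13 ± 0.05 (SE; limma adjusted p = 0.973). Its paralogue Kcnip3, a calcium sensor also known as DREAM, went the other way, with 3736 ± 183 in HT DCS and 3964 ± 212 normalised reads in HT vehicle libraries and a log2 difference of -0.09 ± 0.04 (SE; limma adjusted p = 0.973), which was -0.05 without HT DCS replicates 5 and 6. Kcnj9, the G-protein-gated subunit, had 4764 ± 269 in HT DCS and 5038 ± 207 normalised reads in HT vehicle libraries, a log2 difference of -0.08 ± 0.04 (SE; limma adjusted p = 0.973). None of these 3 separated the groups: in each, libraries of one group lay within the range of the other. Kcnk15 had the largest difference, 0.71 ± 0.29 on the log2 scale (SE; limma adjusted p = 0.973), on means of 19.5 and 11.5 normalised reads in HT DCS and HT vehicle libraries, near the minimum mean of 10.

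DCS in WT mice gave 0 of 75 genes past the adjusted threshold and 0 of 75 at an unadjusted p under 0.05 by limma, where 2.88% of all genes were picked without adjustment and 0% after it, and for 0 of 75 the groups did not overlap, beside 0.330% of all genes. The 75 had 39 differences above 0 and 36 below, with a median of 0.01 beside 0.00 over all genes. The 95% intervals of 57 genes lay within 0.25 of 0 on the log2 scale and those of 66 within 0.5. The smallest p upward belonged to Kcnh1, with 2789, 2714, 2764, 2638 and 2556 normalised reads in the WT DCS libraries, against 2468 at the lowest, 2540 at the median and 2718 at the highest in WT vehicle libraries, a log2 difference of 0.07 ± 0.05 (SE; limma adjusted p = 1). Kcnq1 differed by 0.44, Kcne4, an auxiliary subunit that damps several channels, by -0.25 and Kcnj14 by -0.22 on the log2 scale, all from means under 100 normalised reads. Leaving out 1 library moved Kcnq1 to 0.24 without WT DCS replicate 5, 0.27 without WT DCS replicate 4 and 0.26 without WT vehicle replicate 5. Kcnj14 moved to -0.12, -0.40 and -0.14 without WT DCS replicates 1, 2 and 3 in turn. Averaged over both genotypes, DCS left 0 of 75 genes and 0% of all genes past the adjusted threshold, with 4 of 75, or 5.33%, and 3.16% of all genes at an unadjusted p under 0.05. The 4 were Kcnq1 at 0.52, Kcnk15 at 0.51, Kcnn2 at 0.07 and Kcne4 at -0.30 on the log2 scale. Kcnq1 had 35.2 ± 15.2 and 22.3 ± 8.31 normalised reads in HT DCS and HT vehicle, and 27.7 ± 14.1 and 18.9 ± 5.48 in WT DCS and WT vehicle libraries.

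Whether DCS acted differently in HT and WT mice was tested as an interaction, the HT difference minus the WT difference. No threshold call was made among the 75 or among all genes (0%), and at an unadjusted p under 0.05 limma picked 2 of 75, or 2.67%, against 4.38% of all genes, both higher, beside 2.31% of all genes. The 2 were Kcnip1, with 0.17 ± 0.08 (SE; limma adjusted p = 0.984), and Kcnn2, with 0.13 ± 0.06 (SE; limma adjusted p = 0.984). In the opposite direction the smallest p were those of Kcnj11, the pore of ATP-sensitive potassium channels, at -0.12 ± 0.06, and Kcna6, at -0.15 ± 0.08. Kcnj11 had 1214 ± 80.4 and 1287 ± 49.4 normalised reads in HT DCS and HT vehicle libraries, and 1274 ± 38.5 and 1241 ± 59.0 in WT DCS and WT vehicle libraries. The intervals here were wider, with 38 of 75 within 0.25 of 0.

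Some channel genes passed the threshold between replicate numbers, where none did for genotype or treatment. The groups share the numbers 1 to 6, the labels do not say what they stand for, and the 11 libraries numbered 4 to 6 were compared with the 12 numbered 1 to 3 in a fit that kept the groups. Of the 75 genes, 11 passed the adjusted threshold, or 14.7%, beside 8.00% of all genes. The 9 that were lower in numbers 4 to 6 made 12.0% of the 75 and 4.44% of all genes, and the 2 that were higher 2.67% and 3.56%. Without HT DCS replicates 5 and 6, 5 of the 75 passed, namely Kcnk13, Kcng4, Kcnk3, Kcnk9 and Kcnip1. The share of all genes that passed in that reduced fit is not given here. Whether 5 of 75 lies above that share therefore cannot be told.

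Kcnk13 fell to a mean of 163 normalised reads in numbers 4 to 6, against 206 in numbers 1 to 3, a log2 difference of -0.32 ± 0.05 (SE; limma adjusted p = 7.03e-04). In the HT vehicle group its numbers 4, 5 and 6 had 166, 149 and 153, against 196, 207 and 218 normalised reads in numbers 1, 2 and 3, and in WT DCS the last 2 libraries had 174 and 178, against 226, 222 and 224. The number sets did not overlap within either group, whereas in HT DCS number 4 at 159 lay between the values of numbers 1 and 3. Kcng4 fell to 888 against 1054 normalised reads, a log2 difference of -0.25 ± 0.05 (SE; limma adjusted p = 0.00413). Kcnk3 and Kcnk9, pore subunits of acid-sensitive leak channels, had opposite signs. Kcnk3 fell to 1323 against 1439 normalised reads (log2 difference -0.12) and Kcnk9 rose to 7487 against 6806 (0.14), with limma adjusted p of 0.00967 and 0.00970. Kcnip3 fell by 0.09 and Kcnip1 rose by 0.11 on the log2 scale, a pair whose values also had opposite signs between HT DCS and HT vehicle libraries. Kcnj12, Kcnk15, Kcnh1 and Kcna6 were also lower in numbers 4 to 6, with log2 differences of -0.12, -0.60, -0.10 and -0.11 and limma adjusted p of 0.0334 to 0.0493.

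**Figure D4:**
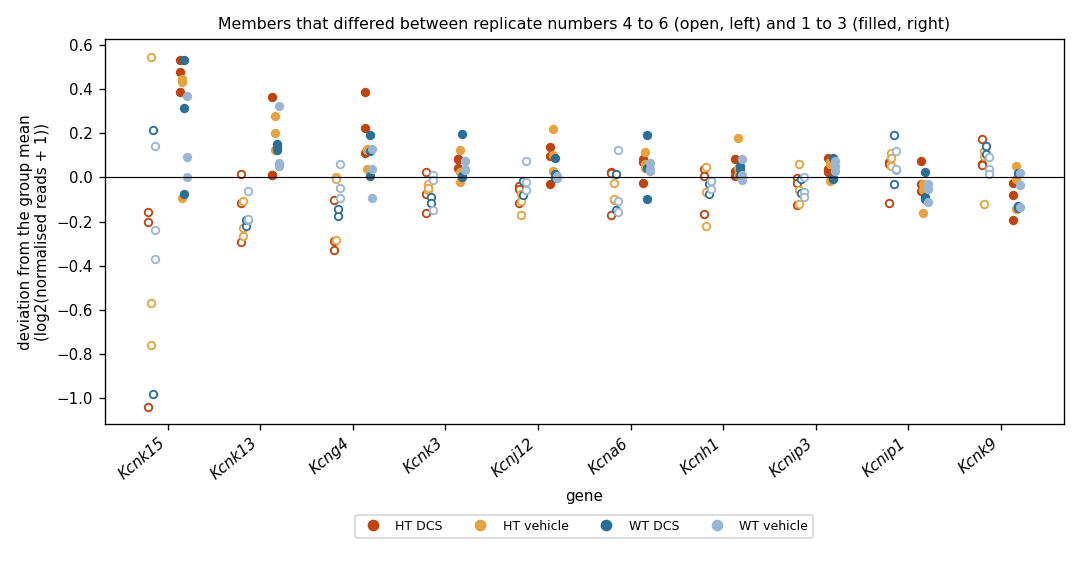
Deviation of each library from its group mean, on the log2 scale of normalised reads plus 1, for 10 of the 11 genes past the threshold between replicate numbers; open points at left are numbers 4 to 6, filled points at right numbers 1 to 3, coloured by group. Only Kcnip1 and Kcnk9 have the open points mostly above 0.

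Cell-type markers were compared along the same split. All 12 oligodendrocyte markers were lower in numbers 4 to 6, 11 of them past the threshold, with a median log2 difference of -0.21 and sums of 327745 to 496597 in numbers 4 to 6 and 434742 to 524352 normalised reads in numbers 1 to 3. All 10 microglial markers were lower too, none past the threshold, with a median of -0.23 and sums of 3422 to 6493 in numbers 4 to 6 and 3640 to 6810 normalised reads in numbers 1 to 3. Of the other lists, cerebellar markers had 3 of 12 past the threshold, all lower, pericyte and smooth muscle markers 2 of 10, both lower, and astrocyte markers 1 higher and 2 lower of 10. Striatal and parvalbumin interneuron markers had 1 of 10 each, both lower. Hindbrain markers were lower in 12 of 15 and endothelial and choroid plexus markers in 8 of 10 each, none past the threshold, with medians of -0.19, -0.04 and -0.07. Neuronal markers had 6 of 10 above 0, a median of 0.01 and 1 past the threshold in each direction. The part of any of these cells in the channel differences was not tested.

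Apart from the groups, the 75 genes varied about as much as others. The residual SD of the log2 values had a median of 0.106 over the 75 and 0.120 over all genes, and 0.0959 and 0.0949 where the mean was at least 100 normalised reads. The largest among those were 0.435 for Kcnmb2, 0.249 for Kcng2, 0.209 for Kcnk13 and 0.188 for Kcng4, and the smallest 0.0412 for Kcnd2. Kcnmb2, a BK subunit that inactivates the channel, had high libraries in every group: 167 in HT DCS replicate 2, 143 in HT vehicle replicate 3, 176 and 163 in WT DCS replicates 2 and 5, and 148 normalised reads in WT vehicle replicate 4, beside a lowest value of 69.7. Kcng2 spanned 127 to 244 normalised reads within the HT DCS group. One library stood apart: HT vehicle replicate 6 had the lowest value of its group for 35 of the 75 genes and lay below the group mean for 53, with a median deviation of -0.10 on the log2 scale. Members with longer transcripts deviated there by a median of -0.12 and those with shorter transcripts by -0.04. Without that library the member counts past the threshold stayed 0 in the 7 comparisons.

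Genes outside the Kcn family that potassium channels work with, namely accessory and anchoring partners, potassium pumps and cotransporters, and the related HCN and cyclic-nucleotide-gated channels, made a list of 49, of which 45 were tested. None passed the adjusted threshold in any of the 7 comparisons. At an unadjusted p under 0.05, limma picked 3 of the 45 between genotypes with DCS, or 6.67%, where it picked 7.55% of all genes, and 2 under vehicle, or 4.44%, against 4.22%. Averaged over treatments it picked 4, or 8.89%, against 7.17% of all genes. For DCS it picked 1 in HT mice, or 2.22%, against 4.80%, 2 in WT mice, or 4.44%, against 2.88%, and 1 averaged over genotypes, or 2.22%, against 3.16%. The interaction gave 2, or 4.44%, against 4.38% of all genes. Cntnap1, which holds Kv1 channels beside the nodes of Ranvier, averaged 9731 in HT DCS and 10549 normalised reads in WT DCS libraries, a log2 difference of -0.12 (limma adjusted p = 0.596), beside the oligodendrocyte values above. Stx1a, a release protein that binds Kv channels, averaged 7001 in HT DCS and 6691 normalised reads in WT DCS libraries, a log2 difference of 0.07. Under vehicle, the potassium-chloride cotransporter gene Slc12a7 averaged 217 in HT vehicle and 163 normalised reads in WT vehicle libraries, a log2 difference of 0.34, and Lgi1, a secreted partner of Kv1 channels, averaged 4659 in HT vehicle and 4886 in WT vehicle libraries, a log2 difference of -0.07. Lrrc55, an auxiliary subunit of BK channels, averaged 1330 in HT DCS and 1252 in HT vehicle, and 1318 in WT DCS and 1198 normalised reads in WT vehicle libraries, log2 differences of 0.09 and 0.14. For DCS in HT mice Slc12a7 gave -0.29, on the HT vehicle libraries already used above, and for DCS in WT mice Kctd8, a GABA-B receptor subunit, averaged 428 in WT DCS and 470 normalised reads in WT vehicle libraries, a log2 difference of -0.13.

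Annotated exons of 25 of the 75 genes share bases with another gene, over 10% of the exonic length in 6, among them Kcnmb4, Kcnj3, Kcna6, Kcnk2 and Kcnk4. Whether the counting used strand is not given in the sources used here, so reads from the shared bases may be mixed with those of the overlapping partners.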

How the data were processed

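The authors deposited 1 table of 18848 genes by 23 libraries, a signal of normalised read counts with decimals. Per the submitters' processing notes, the tools were DESeq2 1.26.0, R 3.6.2 and Salmon 1.1.0, and the genome was GRCm38. Annotation release, import settings and strand use: not given in the sources used here. A stranded poly(A) kit was used, per the labels' protocols. Low values clustered near multiples of 1 step, but the share within 0.15 of a multiple was only 58.0% to 77.5% by library; whole reads were not recovered and a count test was not used.

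Means of 10 or more were required for testing. The fit used limma 3.58.1 in R 4.3.3 on log2(value + 1), a coefficient for each group, all 23 libraries, a mean trend and robust moderation, with two-sided tests and Benjamini-Hochberg adjustment at 0.05 over all 17256. Fold changes on this scale understate the change of low genes. The procedure was tested on simulated whole counts, drawn independently for each gene and library and without a shift between replicate numbers. That test therefore cannot show how the fit behaves with such a shift. Symbols, positions and lengths came from GENCODE M21 on GRCm38, and 16 identifiers had no symbol.

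The members, gene lists and tests were chosen with earlier results of these data known. Named genes are the members past the threshold, the 2 with the smallest p in each direction of each comparison, the highest of each prefix, the 3 highest and 3 lowest, the 4 with the largest spread, those nearest the mean of 10, the leading partner gene in each direction, and 14 pore or auxiliary subunits picked as best known in brain; 3 of these members are not reported here. Other members appear where they complete a count. Alternatives were other pseudocounts, filters and normalisations, array weights, the replicate number as a block, only the groups compared, each library left out, and, added after seeing the data, HT DCS replicates 5 and 6 left out together. Normalisation makes totals alike, so a change in total RNA cannot be seen.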

Additional observations from a re-analysis of the deposited data

Results flagged for a closer look

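Of 168 combinations of a member and a group, 9 had a library far from the others of its group, where chance alone would give about 1 in 20, or 8.4. In HT vehicle replicate 6 this concerned 4 abundant genes, all low: Kcnma1 at 8429 normalised reads (next 10166), Kcnab2 at 8506 (9617), Kcnj3 at 3159 (3468) and Kcng4 at 789.6 (955.6). HT vehicle replicate 3 was high for 2 genes of low level, Kcnmb2 at 142.6 (91.2) and Kcnq1 at 38.7 (22.1). WT vehicle replicate 1 was high for Kcnn1 at 747 (608). In HT DCS, replicate 6 was low for Kcnh1 at 2335 (2634) and replicate 1 for Kcnt1 at 5944 (6311).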

How the results depend on the processing

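In the 7 comparisons of groups, the count of members past the threshold stayed 0 under all 242 alternatives, and the 28 named log2 differences kept their sign under all 960. The 28 were picked by smallest p from these same data, and the alternatives reuse most libraries. Kept signs were therefore likely from the start and add no support for the differences. With 5 or 6 libraries a group and adjustment over 17256 genes, small changes of low members could not be seen. The count of all genes for genotype averaged over treatments was 0 and became 2 with quantile normalisation, 1 with array weights, 4 with the number set (1 to 3 or 4 to 6) as covariate and 6 with the replicate number as a block, under either numbering. The block left the member counts at 0. Leaving out 1 library gave 0 to 1 genes in that comparison (1 without HT DCS replicate 2 or HT vehicle replicate 6), 0 to 1 for HT DCS against HT vehicle (1 without HT DCS replicate 4 or HT vehicle replicate 1) and 0 to 1 for HT DCS against WT DCS (1 without HT vehicle replicate 6). The cause was not tested.

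The numbers were not taken as pairs: of 33 same-number pairs of libraries in different groups, 5 correlated over 0.1 in their deviations, with r from -0.07 to 0.30. The fifth WT DCS library has the number 6 in its description.

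Between replicate numbers 4 to 6 and 1 to 3, alternatives chosen after seeing the data gave 5 to 12 members. The count of all genes past the threshold also moved under these alternatives, and its share is not given here for each. The member counts alone therefore cannot show whether channel genes passed more often than other genes. The member count was 11, and it was 7 in limma without a trend, 5 without HT DCS replicates 5 and 6 together and 5 to 10 with 1 library left out: 5 without HT DCS replicate 1 or HT vehicle replicate 3, 6 without HT DCS replicate 3 or WT vehicle replicate 5, and 7 without HT DCS replicate 6, HT vehicle replicates 2 or 6, WT DCS replicate 3 or WT vehicle replicate 6. Kcnk13, Kcng4, Kcnk3 and Kcnk9 passed in all 31; Kcna6 did not pass in 20, Kcnh1 in 18, Kcnk15 in 17, Kcnip1 in 16, Kcnj12 in 10 and Kcnip3 in 1. The cause was not tested.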
